A study of Mus musculus with 11 samples.

Results

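The gut hormone genes described here are 10 genes whose products are made by enteroendocrine cells, the scattered hormone-secreting cells of the intestinal epithelium: Gcg, Gip, Sst, Pyy, Cck, Ghrl, Sct, Nts, Tac1 and Tph1. They were chosen by name, with earlier results of these data known. All 10 were found by symbol among the 37310 gene identifiers counted in the 11 RNA sequencing libraries. The libraries came from organoids, self-organising epithelial cultures, grown from intestinal crypts of mice carrying Lgr5-EGFP-IRES-creERT2, an allele that places a green fluorescent reporter and an inducible Cre under the stem cell gene Lgr5; every library of both groups carried it. Late libraries were from passages 11, 12 and 13 of mouse_285 and of mouse_283 (n = 6). Early libraries were from passages 2 and 4 of mouse_285 and from passages 2, 3 and 4 of mouse_283 (n = 5). Cultures were split every 7 days. The protocol names mice of 4 and 24 months without tying an age to an animal, so age was not compared. It also names crypts from upper and lower small intestine and from colon, while the labels give every library as small intestine epithelium and none with its segment.

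Enteroendocrine cells arise from crypt stem cells that switch on the transcription factor gene Neurog3, and then Neurod1 and other endocrine factors. They store peptide hormones in dense-core granules after prohormone convertases have cut the precursors, or, as enterochromaffin cells, make serotonin. Which hormone a cell makes varies along the gut: ghrelin, GIP, secretin and cholecystokinin are typical of the duodenum and jejunum, while PYY, neurotensin and proglucagon products are most abundant further down.

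Levels are read counts scaled to library size (CPM) by the TMM method, called normalised CPM below. Gene reads per library ran from 15114132 to 28949911, so 3 reads, the limit that a count of 0 allows, correspond to 0.104 to 0.198 CPM, counting error only. Changes are log2 fold changes, with standard error (SE) and Benjamini-Hochberg adjusted p over 14172 tested genes from edgeR's quasi-likelihood test, and a gene is called changed at an adjusted p under 0.05. All 10 genes passed the filter on low counts. Passages 3 and 4 of mouse_283 gave libraries unlike the others: relative expression climbed with transcript GC content by 1.02 and 0.81 on the log2 scale per 10 percentage points, against -0.43 to 0.20 in the other 9 libraries. Late and early libraries differ in time in culture and no label gives a library batch, so passage and batch cannot be told apart. Nothing in the labels says that passages of an animal were separate cultures, so p-values measure the spread between libraries of 2 animals.

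Of the peptide hormone genes, Sst and Pyy fell late against early, by 1.88 and 2.21 on the log2 scale, and none of the 10 genes rose by the test. That is 2 of 10 called, both lower, where 3.05% of all tested genes were called, 2.34% lower and 0.706% higher. The log2 change was negative for 8 of the 10 genes, against 51.4% of all tested genes, and its median over the 10 was -1.36, against -0.02 over all. For 6 of the 10 (Gcg, Sst, Pyy, Cck, Ghrl and Nts) every late library lay below every early library of the same animal, in both animals, which held for 5.44% of all tested genes. For 0 of the 10 did every late library lie above every early one in both animals, against 3.99% of all genes. Because the 10 were chosen with earlier results of these data known, the shares over all genes are given as description. In bulk RNA, fewer cells of a type and less RNA per cell cannot be told apart.

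**Figure D1:**
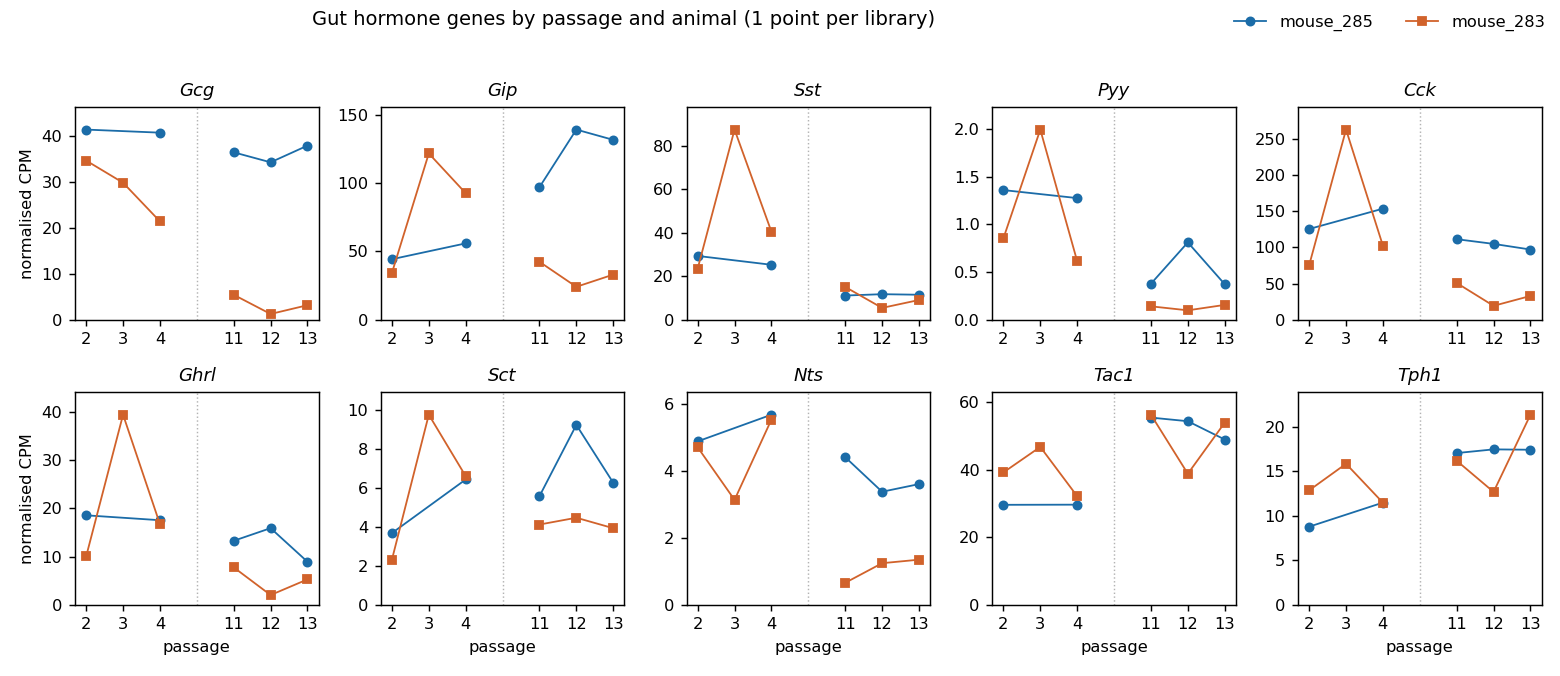
Normalised CPM (vertical axis, linear and from 0) of the 10 hormone genes by passage (horizontal axis), 1 point per library, circles for mouse_285 and squares for mouse_283; lines join libraries of an animal within a stage, and the dotted line parts early from late passages. Sst lies lower in all 6 late libraries (5.42 to 15.1) than in all 5 early ones (23.5 to 87.5), whereas Gcg is low only in the late libraries of mouse_283 (1.24 to 5.43).

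The promoters of 4 of these genes are shown as examples, which do not cover every pattern found, such as that of Gip. They are those of Sst and Pyy, which fell in the fit over both animals, Gcg, which fell within mouse_283, and Tac1, which did not fall. Each is the 250 bases before a transcription start listed by RefSeq on GRCm38.p6, a later build than that of the counts, and read 5′ to 3′ on the gene's own strand. Sst lies at chr16:23890845-23891094 on the minus strand, Pyy at chr11:102107833-102108082 on the minus strand, Gcg at chr2:62483654-62483903 on the minus strand and Tac1 at chr6:7554811-7555060 on the plus strand. Capitals mark matches to 4 short motifs: the TATA box TATAAA on the gene's strand, and on both strands the cAMP response element TGACGTCA, the E-box CAGATG and the homeodomain core TAATTA.
Sst: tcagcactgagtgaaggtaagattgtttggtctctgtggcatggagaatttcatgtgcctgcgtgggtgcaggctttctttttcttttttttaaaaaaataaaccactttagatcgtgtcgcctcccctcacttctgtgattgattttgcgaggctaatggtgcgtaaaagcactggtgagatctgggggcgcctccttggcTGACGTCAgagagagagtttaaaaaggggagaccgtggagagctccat
Pyy: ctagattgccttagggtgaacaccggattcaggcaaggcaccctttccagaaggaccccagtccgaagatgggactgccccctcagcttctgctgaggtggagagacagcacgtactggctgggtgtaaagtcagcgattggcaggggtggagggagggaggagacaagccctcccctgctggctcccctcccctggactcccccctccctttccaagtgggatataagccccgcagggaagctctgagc
Gcg: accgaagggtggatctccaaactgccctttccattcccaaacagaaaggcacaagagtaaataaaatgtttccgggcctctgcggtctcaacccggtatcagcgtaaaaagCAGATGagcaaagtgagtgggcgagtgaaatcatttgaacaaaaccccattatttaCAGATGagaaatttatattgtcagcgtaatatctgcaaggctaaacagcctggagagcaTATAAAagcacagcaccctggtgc
Tac1: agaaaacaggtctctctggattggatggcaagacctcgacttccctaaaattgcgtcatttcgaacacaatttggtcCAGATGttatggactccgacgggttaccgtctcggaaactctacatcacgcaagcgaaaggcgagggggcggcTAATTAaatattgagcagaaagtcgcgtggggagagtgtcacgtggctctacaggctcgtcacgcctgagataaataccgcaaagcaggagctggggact
The Sst promoter held the 8 letters of the cAMP response element 48 to 41 bases before the start, a motif found in 1.55% of 32817 promoter windows of this length. The Gcg promoter held a TATA box 24 to 19 bases before the start, present in 7.60% of windows, and the E-box letters at 139 to 134 and 83 to 78 bases before the start, present in 14.5%. The Tac1 promoter held the E-box letters 173 to 168 bases before the start and TAATTA 100 to 95 bases before it, the second of which 4.85% of windows hold. The Pyy window held none of the 4, which says only that these letters are not in it. RefSeq lists 2 starts for Pyy, and the window of the start not printed (chr11:102107777-102108026) also held none. The matches overlap no other motif searched, and they are descriptions of sequence, not of binding. Nor are the motifs particular to the genes shown. The Sct window held the TATA box and the E-box letters, that of Cck the E-box letters and a Tph1 window TAATTA.

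Somatostatin, the product of Sst (ENSMUSG00000004366.3), is made by D cells and inhibits the release of many other gut hormones. Sst had 11.1, 11.7 and 11.5 normalised CPM at passages 11, 12 and 13 of mouse_285, against 29.3 and 25.3 at passages 2 and 4. In mouse_283 it had 15.1, 5.42 and 9.06 at passages 11, 12 and 13, against 23.5, 87.5 and 40.5 at passages 2, 3 and 4. All late libraries were below all early ones, and the passage 3 library of mouse_283 was far above the rest. Sst fell by 1.88 on the log2 scale (SE 0.37, adjusted p = 0.0182). Without passages 3 and 4 of mouse_283 it still fell, by 1.25 (adjusted p = 0.008), and without the passage 13 library of mouse_283 it missed the threshold (log2 change -1.78, adjusted p = 0.0663).

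Peptide YY, the product of Pyy (ENSMUSG00000017311.8), is a hormone of L cells that slows gut transit and reduces food intake. Pyy was the least abundant of the 10, with 9, 13 and 6 reads in the late libraries of mouse_285 (0.377, 0.811 and 0.372 normalised CPM), against 24 and 25 reads in its early libraries (1.36 and 1.28 CPM). In mouse_283 it had 3 reads in each late library (0.14, 0.098 and 0.155 CPM), against 14, 37 and 17 reads at passages 2, 3 and 4 (0.854, 2.00 and 0.614 CPM). The groups did not overlap within either animal, but the highest late library of mouse_285 exceeded the lowest early library of mouse_283, and late mouse_283 was at the level that 3 reads mark. Pyy fell by 2.21 on the log2 scale (SE 0.49, adjusted p = 0.0305). It lost the call without the block on animal (adjusted p = 0.0637) and when any of 6 single libraries was left out: passages 11, 12 or 13 of mouse_283, 11 or 13 of mouse_285, or 4 of mouse_285 (adjusted p from 0.064 to 0.0941).

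Proglucagon, the product of Gcg (ENSMUSG00000000394.9), is cut in intestinal L cells into the peptides GLP-1 and GLP-2, which stimulate insulin release and epithelial growth. Gcg had 36.5, 34.3 and 38.0 normalised CPM at passages 11, 12 and 13 of mouse_285, against 41.5 and 40.8 at passages 2 and 4. In mouse_283 it had 5.43, 1.24 and 3.16 CPM late, against 34.7, 29.9 and 21.4 early. The late libraries of mouse_283 stood alone, several-fold below the other 8, and the gap between stages in mouse_285 was narrow. Over both animals the log2 change was -1.89 (SE 0.57, adjusted p = 0.0931), which missed the threshold. Within mouse_283 Gcg fell by 3.14 (SE 0.44, adjusted p = 0.00548), where 1.42% of all genes were called, and within mouse_285 the log2 change was -0.18 (SE 0.44, adjusted p = 0.993). The call within mouse_283 was missed without its passage 13 library (log2 change -3.12, adjusted p = 0.0509).

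Neurotensin, the product of Nts (ENSMUSG00000019890.3), is a peptide of ileal endocrine cells that acts on fat absorption and motility. Nts had 4.40, 3.37 and 3.60 normalised CPM late in mouse_285, against 4.87 and 5.67 early, and 0.655, 1.24 and 1.35 late in mouse_283, against 4.70, 3.13 and 5.52 early. As with Gcg, the late libraries of mouse_283 were the lowest and late mouse_285 lay just under its early libraries. The log2 change over both animals was -1.33 (SE 0.345, adjusted p = 0.0587), and within mouse_283 Nts fell by 2.04 (SE 0.365, adjusted p = 0.019). That within-animal call was missed when passage 4, 11, 12 or 13 of mouse_283 was left out (highest adjusted p = 0.0946).

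Cholecystokinin, the product of Cck (ENSMUSG00000032532.5), is the I-cell hormone that contracts the gallbladder and stimulates pancreatic enzyme release. Cck had 111, 105 and 97.1 normalised CPM late in mouse_285, against 126 and 154 early, and 50.8, 19.2 and 32.9 late in mouse_283, against 75.4, 263 and 102 early. Stages did not overlap within an animal, although late mouse_285 overlapped early mouse_283. The log2 change was -1.38 (SE 0.42, adjusted p = 0.0928). Within mouse_283 Cck fell by 2.10 (SE 0.46, adjusted p = 0.0489), close to the threshold, and without passages 3 and 4 of that animal the change was -1.13 (adjusted p = 0.0748).

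Ghrelin, the product of Ghrl (ENSMUSG00000064177.5), is a peptide of X/A-like cells that stimulates appetite. Ghrl had 13.3, 15.9 and 8.93 normalised CPM late in mouse_285, against 18.6 and 17.6 early, and 7.77, 2.02 and 5.28 late in mouse_283, against 10.1, 39.5 and 16.7 early. Its libraries ranked much as those of Cck did, with passage 3 of mouse_283 far above the others. The log2 change was -1.44 (SE 0.46, adjusted p = 0.11), and within mouse_283 it was -2.14 (SE 0.55, adjusted p = 0.0911), so neither was called. In the GENCODE vM21 annotation Ghrl overlaps 2 genes on the opposite strand (Gm26982 and Gm44033) that are not among the counted identifiers, and because the counts are unstranded their reads cannot be told apart from those of Ghrl.

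GIP, the product of Gip (ENSMUSG00000014351.6), is the incretin of K cells that augments insulin release after a meal. Gip had 97.1, 139 and 132 normalised CPM late in mouse_285, against 44.3 and 55.9 early. In mouse_283 it had 42.4, 24.1 and 33.0 late, against 34.3, 122 and 92.7 early. Every late library of mouse_285 was above its early ones, while in mouse_283 the late libraries lay below passages 3 and 4 and overlapped passage 2. The log2 change was 1.29 within mouse_285 (SE 0.46, adjusted p = 0.7) and -1.32 within mouse_283 (SE 0.40, adjusted p = 0.147), and over both animals it was -0.25 (SE 0.51, adjusted p = 0.768). Without passages 3 and 4 of mouse_283, the libraries with the GC relation above, the log2 change within that animal was -0.04 (adjusted p = 0.953).

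Secretin, the product of Sct (ENSMUSG00000038580.6), is the S-cell hormone that stimulates bicarbonate secretion. Sct had 5.58, 9.24 and 6.27 normalised CPM late in mouse_285, against 3.68 and 6.43 early, and 4.12, 4.47 and 3.93 late in mouse_283, against 2.32, 9.76 and 6.60 early. Stages overlapped in both animals. The log2 change was -0.12 (SE 0.36, adjusted p = 0.84), and across alternative settings the changes of Sct (-0.35 to 0.60) and of Gip (-0.68 to 0.74) took either sign.

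Tac1 (ENSMUSG00000061762.4) encodes the precursor of substance P, and Tph1 (ENSMUSG00000040046.7) the tryptophan hydroxylase that limits serotonin synthesis; enterochromaffin cells express both. Tac1 had 55.4, 54.3 and 48.9 normalised CPM late in mouse_285, against 29.6 and 29.6 early, and 56.2, 38.8 and 53.9 late in mouse_283, against 39.2, 46.7 and 32.1 early. Tph1 had 17.1, 17.5 and 17.4 late in mouse_285, against 8.78 and 11.5 early, and 16.2, 12.7 and 21.4 late in mouse_283, against 12.9, 15.9 and 11.5 early. For both genes the stages did not overlap in mouse_285, with late above early, and overlapped in mouse_283 because of the passage 12 library. The log2 change was 0.55 for Tac1 (SE 0.18, adjusted p = 0.106) and 0.52 for Tph1 (SE 0.20, adjusted p = 0.153), neither called. Without passages 3 and 4 of mouse_283 the count of called hormone genes was 3, with Tac1 higher beside Sst and Pyy lower.

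The stage change was set against the animal by an interaction, the change in mouse_283 minus that in mouse_285. With all libraries it was negative for all 10 genes (median -1.60), against 50.1% of all genes (median -0.002). Without passages 3 and 4 of mouse_283 it was 0.39 for Sct and 0 for Sst, and for Gip it was -1.34 (adjusted p = 0.135). None was called by edgeR, as for all genes (0 of 14172, 0%), where 302 genes and 4 of the hormone genes had an unadjusted p under 0.05; DESeq2 called 16 genes, among them Gcg and Gip. The difference was -2.96 for Gcg (SE 0.62, unadjusted p = 0.000519, adjusted p = 0.817) and -2.62 for Gip (SE 0.605, unadjusted p = 0.00106, adjusted p = 0.99). In simulated data, with independent libraries and no GC relation, the interaction test recovered 25.4% of genes that differed by 2 on the log2 scale and 62.1% of those that differed by 3.

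Within mouse_283, 5 of the 10 genes were called and all 5 were lower (Gcg, Nts, Sst, Pyy and Cck). Among all 14172 tested genes 201 were called (1.42%), 154 lower and 47 higher. Passages 3 and 4 of this animal, both early, had the GC relation above. Over 18 alternative settings (17 for Pyy) the call held in 17 for Gcg and 14 for Nts. It held in 9 for Sst, 8 for Pyy and 6 for Cck. The log2 change ran from -3.72 to -2.73 for Gcg, from -2.81 to -1.25 for Sst and from -2.50 to -1.13 for Cck. Leaving out the passage 12 or the passage 13 library of mouse_283 ended the calls of Nts, Sst, Pyy and Cck, and omission of any of 8 single libraries ended that of Sst, of any of 9 that of Pyy and of any of 10 that of Cck. Within mouse_285 none of the 10 was called, nor was any other gene by edgeR (0%), although 762 genes and 5 of the hormone genes had an unadjusted p under 0.05; DESeq2 called 72 genes and 0 of the hormone genes. For mouse_285 against mouse_283 with stage in the model, 0.0776% of genes were called and none of the 10 (2 at an unadjusted p under 0.05, and Gcg alone by DESeq2). Gcg had the greatest difference of the 10, 2.23 (SE 0.57, adjusted p = 0.299).

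**Figure D2:**
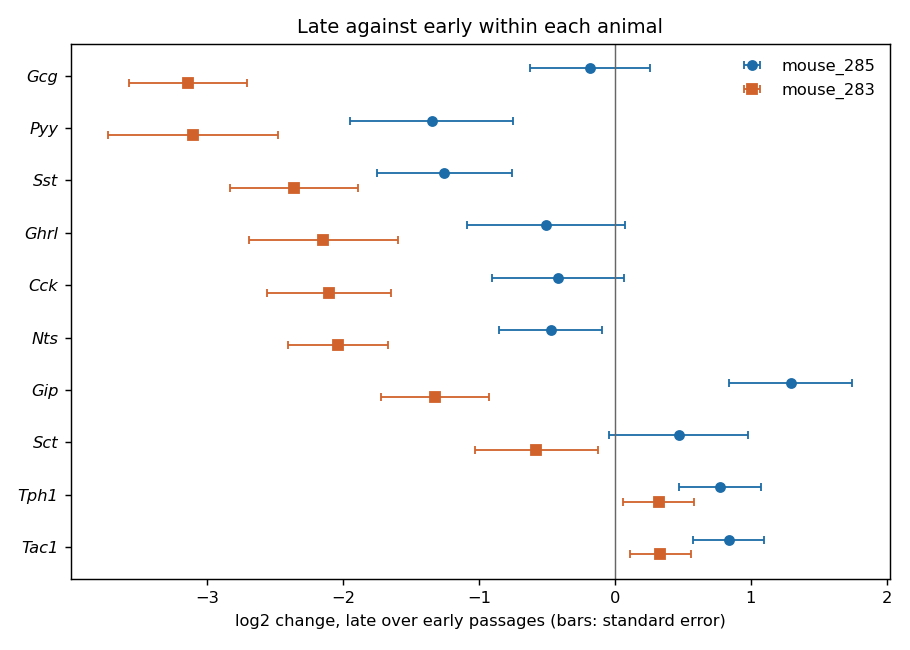
Log2 change of late over early passages (horizontal axis) for each hormone gene within mouse_285 (circles) and within mouse_283 (squares), with bars of 1 standard error; the vertical line marks no change. With all libraries the mouse_283 point lies left of the mouse_285 point for all 10 genes, though without passages 3 and 4 of mouse_283 not for Sct (difference 0.39) or Sst (difference 0), and most widely for Gcg (-3.14 in mouse_283 and -0.18 in mouse_285) and Gip (-1.32 in mouse_283 and 1.29 in mouse_285).

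To compare genes, levels were divided by the length of the longest coding transcript (RPKM). Late libraries had Gip first, with 120 ± 78.8 RPKM, then Cck with 86.8 ± 50.1 and Tac1 with 41.7 ± 5.39 (SD, n = 6). Early libraries had Cck first, with 180 ± 90.9 RPKM, then Gip with 107 ± 56.0 and Sst with 57.2 ± 37.0 (SD, n = 5). Gip exceeded Cck in 6 of 6 late libraries and Cck exceeded Gip in 4 of 5 early libraries, although at both stages the means differ by less than the SD of the higher. In early libraries Gcg with 30.9 ± 7.64 RPKM and Tac1 with 28.8 ± 6.03 differed by less than their SDs, and Gcg was the higher in 3 of 5. At the low end were Tph1, Nts and Pyy at both stages, with Pyy at 0.587 ± 0.481 RPKM late and 2.20 ± 0.956 early.

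Of the summed RPKM of the 10 genes, Tac1 made up 8.97% to 27.3% late and 4.90% to 11.9% early, and Sst 3.39% to 9.46% late and 8.43% to 15.7% early. The share of Gip was 35.8% to 45.6% late in mouse_285, against 18.7% to 20.6% early. In mouse_283 the share of Gcg was 0.99% to 2.26% late, against 3.54% to 12.0% early, and that of Tac1 20.7% to 27.3% late, against 4.90% to 11.9% early. The summed normalised CPM of the 10 genes was 352, 391 and 364 late in mouse_285, against 308 and 348 early, and 199, 109 and 164 late in mouse_283, against 238, 619 and 330 early. The total was thus lower late than early in mouse_283 and slightly higher in mouse_285.

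**Figure D3:**
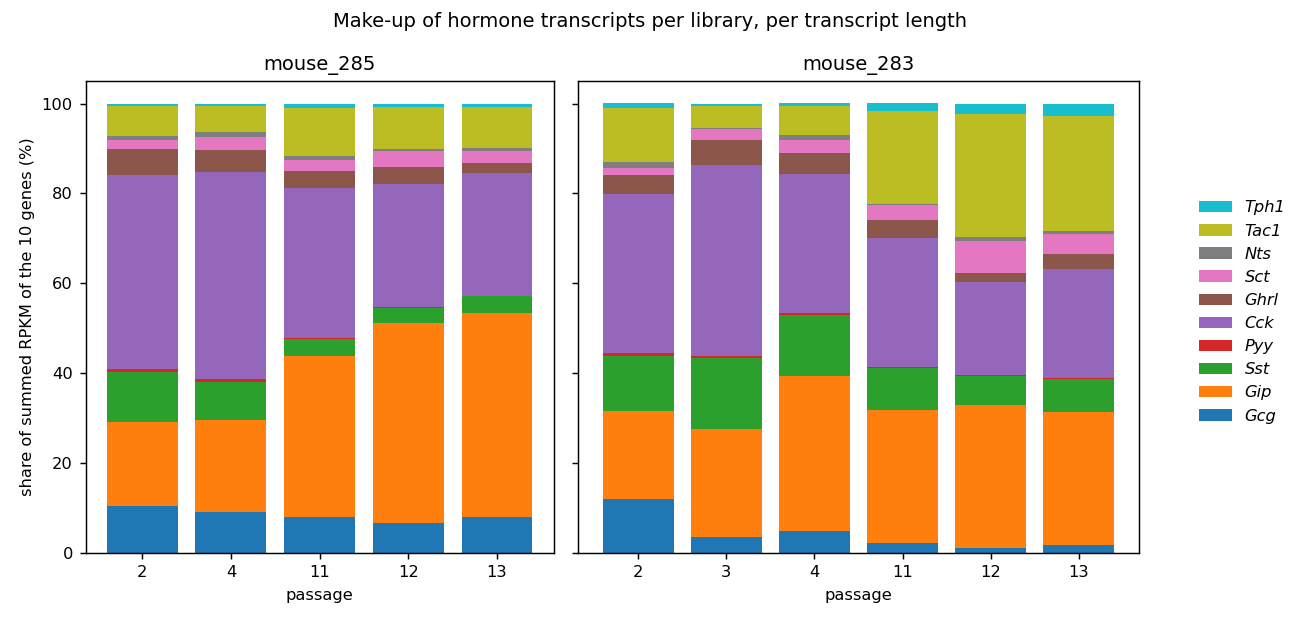
Share of the summed RPKM of the 10 hormone genes (vertical axis, percent, stacked) in each library by passage (horizontal axis), for mouse_285 and mouse_283. The Gip segment is wider late in mouse_285 (35.8% to 45.6%), and the Tac1 segment is wider late in mouse_283 (20.7% to 27.3%).

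Likeness across the 11 libraries was measured by Pearson correlation of log2 CPM, given as a description because libraries share animals, stage and the GC pattern above. Cck and Ghrl varied most alike (r = 0.97), followed by Tac1 and Tph1 (r = 0.92), while r between Tac1 and each of Gcg, Sst, Pyy, Cck, Ghrl and Nts was negative (-0.54 to -0.18). Among all tested genes with a symbol, the most similar to Gcg were Osr2, a zinc finger transcription factor gene (r = 0.986), H2-T3 (r = 0.964) and Vwce (r = 0.957). Those most similar to Gip were Pcsk1n, which encodes an inhibitor of prohormone convertase 1 (r = 0.904), Cryba2 (r = 0.877) and the cell cycle inhibitor gene Cdkn1c (r = 0.872). For Sst they were Ndrg2 (r = 0.984), H2-DMa (r = 0.966) and Gm38393 (r = 0.961). For Nts they included Carmil3 (r = 0.965) and Lct, the lactase gene of enterocytes (r = 0.916). For Cck, after Ghrl, they were Kctd17 (r = 0.949) and Fam78a (r = 0.948), and for Ghrl, after Cck, Trim62 (r = 0.95) and Dlgap4 (r = 0.936). For Sct they were Anapc13 (r = 0.948), Rpp25 (r = 0.945) and Zfp428 (r = 0.934). Beside each other, Tac1 and Tph1 shared Egflam (r = 0.876 and 0.863), followed by Arhgap10 for Tac1 (r = 0.87) and Syt13 for Tph1 (r = 0.803).

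Among genes for the shared machinery of endocrine cells, none of those for transcription factors, granule proteins or prohormone processing fell by the test. Over all tested genes 0.706% were called higher and 2.34% lower. Of 26 tested enteroendocrine transcription factor genes, 2 rose late against early and 0 fell, with a median log2 change of 0.57: Neurod1, which drives endocrine differentiation, rose by 1.42 (SE 0.31, adjusted p = 0.0302) and Pdx1, a factor of the duodenum and pancreas, by 1.19 (SE 0.23, adjusted p = 0.015). Neurod1 missed the threshold when any of 8 single libraries was left out, and Pdx1 did without the block on animal (adjusted p = 0.246). For Neurog3 the log2 value was 0.57 (SE 0.43, adjusted p = 0.4). Of 21 granule protein genes 1 rose, Chgb, whose product chromogranin B packs granules, by 1.51 (SE 0.25, adjusted p = 0.00871), with 519 to 711 normalised CPM in late libraries and 110 to 313 in early ones, and 0 fell. Its relative Chga differed by -0.18 (SE 0.28, adjusted p = 0.685).

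Of 10 tested prohormone processing genes 1 rose, Tpst1, which encodes an enzyme that adds sulfate to tyrosines, by 0.85 (SE 0.19, adjusted p = 0.0318), and it lost the call when any of 9 single libraries was left out. The shares over all tested genes were 0.706% called higher and 2.34% called lower. Pcsk1, the convertase gene of intestinal endocrine cells, differed by 0.28 (SE 0.29, adjusted p = 0.538), Cpe, the carboxypeptidase gene, by 0.60 (SE 0.22, adjusted p = 0.143), and Pcsk2 was below the filter. Of 10 serotonin pathway genes 0 rose and 1 fell, Maob, a monoamine oxidase gene, by 1.03 (SE 0.25, adjusted p = 0.0438). Maob lost the call without the block on animal (adjusted p = 0.0761) and when any of 9 single libraries was left out. Ddc, for the decarboxylase that follows Tph1, differed by 0.29 (SE 0.15, adjusted p = 0.244), and Slc18a1, for the vesicular monoamine transporter, by 0.47 (SE 0.19, adjusted p = 0.166). Of 8 other tested hormone genes 1 fell, the tachykinin gene Tac4, with 0 to 0.25 normalised CPM late and 0.453 to 0.976 early (adjusted p = 0.0206), levels of few reads and a call lost when any of 4 single libraries was left out.

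On the receiving side, 9 of 32 hormone receptor genes were tested and 8 of the 32 had no read in any library. Here too the share over all tested genes was 2.34% called lower and 0.706% called higher. The glucagon receptor gene Gcgr fell: it had 3, 1 and 1 reads late in mouse_285, against 13 and 23 early, and 2, 2 and 3 reads late in mouse_283, against 9, 28 and 20 early. All late libraries were at or under 3 reads and below all early ones, and the fitted log2 change was -3.23 (SE 0.45, adjusted p = 0.00358). Of 9 tested nutrient and bile acid receptor genes 1 rose, the short-chain fatty acid receptor gene Ffar2, by 1.08 (SE 0.27, adjusted p = 0.0469), a call lost without passages 3 and 4 of mouse_283 (adjusted p = 0.0857) and when any of 9 single libraries was left out. Of 10 genes for peptidases that degrade hormones 2 fell, both of the enterocyte brush border: Ace by 1.82 (SE 0.32, adjusted p = 0.0109) and Anpep by 1.27 (SE 0.25, adjusted p = 0.0176). Anpep lost its call without passage 13 of mouse_283 (adjusted p = 0.0655) or passage 4 of mouse_285 (adjusted p = 0.0649).

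**Figure D4:**
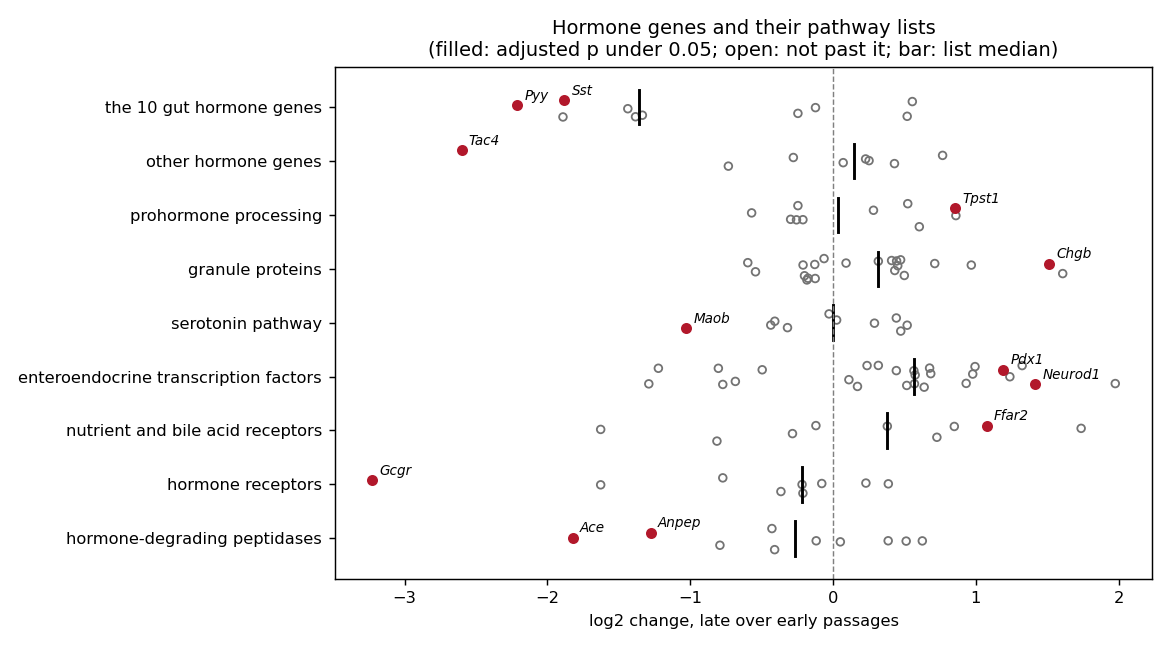
Log2 change of late over early passages (horizontal axis) for the tested genes of the 10 gut hormone genes and of 8 lists of their pathway (rows), with filled points for genes of an adjusted p under 0.05, open points for the others and a bar at each median. The bar of the hormone genes lies at -1.36 and that of the transcription factor genes at 0.57.

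The fall of Gcg within mouse_283 stood beside changes in endocrine transcription factor genes in that animal. Pax6, which drives proglucagon transcription in L cells, had 2.26, 3.25 and 1.61 normalised CPM late in mouse_285, against 2.32 and 1.07 early, and 13.9, 14.3 and 15.2 late in mouse_283, against 2.56, 1.19 and 1.19 early. The late libraries of mouse_283 were thus high in Pax6 and low in Gcg. Within mouse_283 Pax6 rose by 3.14 on the log2 scale (adjusted p = 0.00509) and Pdx1 by 1.43 (adjusted p = 0.0396). The call of Pdx1 was lost when any of 9 single libraries was left out. Higher late levels of Pdx1 were not particular to mouse_283. In mouse_285 it had 10.3, 7.36 and 11.0 CPM late, against 3.91 and 6.43 early. Osr2, the gene most like Gcg, had 21.3, 26.3 and 21.5 CPM late in mouse_285, against 30.6 and 37.4 early, and 1.73, 0.098 and 0.517 late in mouse_283, against 17.6, 28.4 and 23.8 early. It fell within mouse_283 by 4.93 (adjusted p = 0.00509, and 0.0506 without the passage 13 library of mouse_283). Osr2 was picked for its likeness to Gcg over these same libraries, so this fall is not a separate result.

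**Figure D5:**
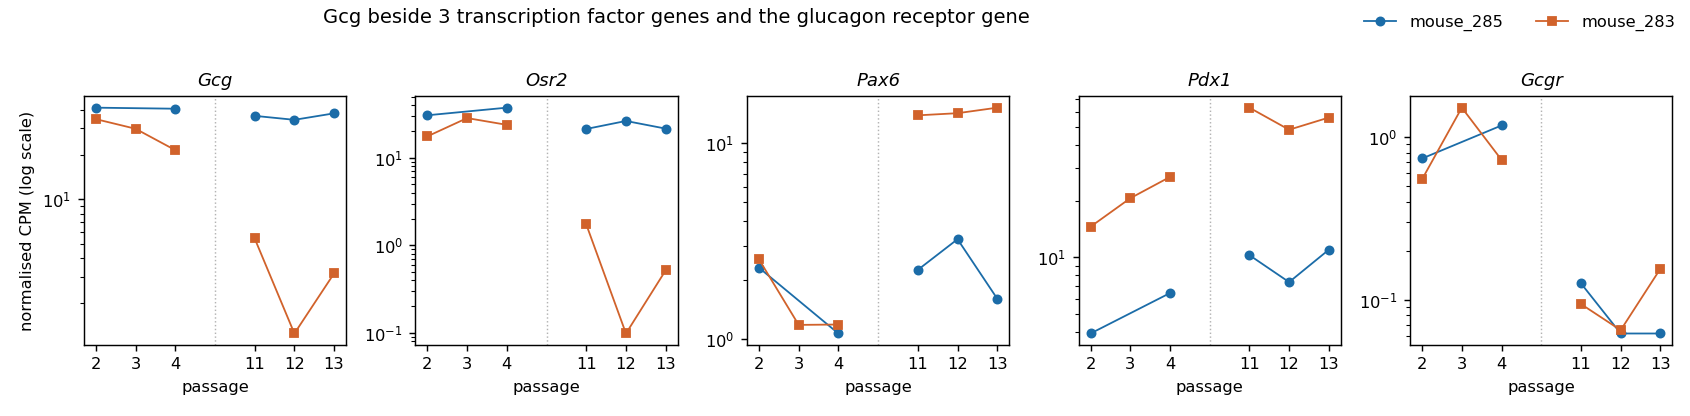
Normalised CPM on a log axis of Gcg, Osr2, Pax6, Pdx1 and Gcgr by passage, 1 point per library, circles for mouse_285 and squares for mouse_283. In late mouse_283 Gcg and Osr2, which was picked for its likeness to Gcg, are low and Pax6 is high. Gcgr is low in the late libraries of both animals.

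Markers of other cell types moved too, and their part in the hormone changes was not tested. Across all tested genes 2.34% were called lower and 0.706% higher late against early. Late against early, 5 of 10 enterocyte marker genes fell and 0 rose, with summed levels of 2410 to 3350 normalised CPM in late libraries and 4010 to 5230 in early ones. Of 6 tested tuft cell markers 4 fell, with sums of 5.84 to 12.1 CPM late and 20.7 to 27.0 early. Of 12 general enteroendocrine markers 2 rose, Chgb and Neurod1, described above, and 0 fell, with sums of 759 to 1050 CPM late and 505 to 567 early. Chgb alone had 519 to 711 CPM late and 110 to 313 early, so the sums largely follow this gene. Chga, by contrast, had 125 to 205 CPM late and 110 to 317 early. The log2 change was positive for 7 of the 12 and negative for 5. Of 8 tested genes of ileal identity 1 rose, Fgf15, and 0 fell, with sums of 29.0 to 68.5 CPM late and 66.2 to 83.7 early. The log2 change was negative for 6 of the 8 and positive for 2, with a median of -0.72. This list includes Osr2, the gene most like Gcg, which had 0.098 to 26.3 CPM late and 17.6 to 37.4 early. Of 10 tested genes of proximal identity 1 rose, Pdx1, and 1 fell, Lct, with sums of 1580 to 2520 CPM late and 2110 to 3480 early. Of 14 neuron and glia markers 6 passed the filter, led by Ret with 7.96 to 21.5 CPM late and 17.2 to 34.4 early, and none was called; 3 had 0 reads in every library, Sox10 and Uchl1 among them, and the list summed to 18 to 39.3 CPM late and 26.6 to 43.5 early. Of 12 stomach markers 4 were tested and none called, with sums of 6.02 to 12.7 CPM late and 9.80 to 21.5 early; Atp4a had 66 to 172 reads, while Sox2 and Tff1 had 0. Of 6 islet markers 2 were tested and none called, with sums of 2.12 to 7.26 CPM late and 1.23 to 6.75 early, and Ins1, Ins2 and G6pc2 had 0 reads in every library.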

How the data were processed

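Bulk RNA from 11 organoid libraries had been sequenced. The authors deposited gene-level read counts, 1 table a library. The submitters' processing notes name Trimmomatic, STAR and mouse build mm9; versions and annotation are not given in the sources used here. The deposited tables give unstranded and per-strand counts, and the first strand column held 50.0% to 50.2% of stranded reads, so unstranded counts were used. Reads in no gene (3.77% to 11.7%), ambiguous (3.11% to 4.03%), multimapping (5.92% to 8.78%) and unmapped (4.76% to 10.2%) stayed out of the counts. File names carry passage numbers higher by 1 than the titles, and the titles were used. Symbols were matched for 32620 identifiers.

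Genes were filtered with filterByExpr, scaled by TMM and tested with edgeR 4.0.16 (quasi-likelihood, two-sided, R 4.3.3). Late against early had the animal, named in the titles, as a block. An SE is the size of a log2 change divided by the square root of F. The test was checked on simulated data, where it recovered 37.3%, 77.6% and 98.5% of genes changed by 1, 2 and 3 (log2) between stages, with 5 false among 147 calls. Simulated counts were drawn independently for each library and without a relation to GC content. They therefore do not show how the test fares with the GC pattern or with dependence between passages of an animal. No pair of libraries was a duplicate. DESeq2 1.42.0, other filters and scaling, a GC and length correction, and leaving out libraries were alternatives. The members and lists were chosen with earlier results of these data known. All 10 members are named, with the 3 most correlated genes of each with a mean of at least 1 CPM, and of each list up to 4 genes with the smallest p. Some genes that the rule names are not reported here. Promoter sequences are from RefSeq on GRCm38.p6, and coordinates on mm9 are not given.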

Additional observations from a re-analysis of the deposited data

Results flagged for a closer look

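A library far from the others of its group was found for 2 of the 10 genes, in 20 groups of libraries examined, where chance gives about 1 in 20. Among the 5 early libraries Sst reached 87.52 normalised CPM in the passage 3 library of mouse_283, and the next highest was 40.5. Ghrl reached 39.47 in the same library, and the next highest was 18.6. Both were the highest values of all 11 libraries. Without passages 3 and 4 of mouse_283 the fall of Sst was 1.25 on the log2 scale (edgeR, adjusted p = 0.008). That library had the steepest relation of expression to GC content, 1.02 on the log2 scale per 10 percentage points. The part of this relation in both values was not tested.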

How the results depend on the processing

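The direction of late against early was kept by Gcg, Sst, Pyy, Cck, Ghrl, Nts, Tac1 and Tph1 under every alternative run, and Gip and Sct took either sign. Of hormone genes, 2 were called late against early, against 7 with DESeq2, 6 with no filter on low counts, 1 with at least 1 CPM in at least 5 libraries (which removes Pyy), 1 without the replicate block on animal and 4 with the GC and length correction. Leaving out 1 library gave 0 (passage 13 of mouse_283) to 7 (passage 2 of mouse_283). Between animals 0 were called, against 1 with DESeq2, 2 with no filter and 2 without passages 3 and 4 of mouse_283; leaving out 1 library gave 0 in each case. For the interaction 0 were called, against 2 with DESeq2 and 2 with no filter, and leaving out 1 library gave 0 to 4 (4 without passage 2 of mouse_283). Of all genes 432 were called (100 higher, 332 lower), against 1343 with DESeq2 (495 higher, 848 lower), 1819 with no filter (1053 higher, 766 lower), 697 without passages 3 and 4 of mouse_283 and 1066 with the GC and length correction (462 higher, 604 lower); leaving out 1 library gave 173 (passage 4 of mouse_285) to 4872 (passage 2 of mouse_283). Without passages 3 and 4 of mouse_283 the interaction was 0.39 for Sct and 0 for Sst, and the other 8 genes kept its direction under every alternative run. The cause of these shifts was not tested. Late below early without overlap in both animals held for 6 hormone genes, and for 5 by CPM without TMM (not Gcg) or with the GC and length correction (not Cck), settings chosen after seeing the data. Over all comparisons 820 of the single-gene values of the 10 genes kept their side of the threshold, 42 passed it newly, 43 no longer did, and no called one changed sign. Low counts limit Pyy, Gcgr and Tac4.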
